A study of Mus musculus with 42 samples.

Results

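The comparison set the 2 tumour lines of BALB/c origin, CT26 and WEHI3, against the 5 lines of C57BL/6 origin, B16, EG7, LLC, MC38 and Pan02, without the drug. All libraries came from cells kept for 6 h in 0.1% DMSO, the vehicle of the splicing modulator RECTAS, with 3 libraries a line. This gave 6 libraries of BALB/c origin and 15 of C57BL/6 origin, 21 of the 42 in the series. The other 21 libraries, from the same 7 lines in 10 µM RECTAS with 0.1% DMSO, served as a repeat. A gene was a member when the mean log2(TPM + 1) of CT26 and that of WEHI3 both lay above, or both below, the means of all 5 other lines, and when it reached a mean of 1 TPM in any line. TPM is a unit that gives the share of a library's transcripts that a gene takes after correction for length. The distance between the nearest lines of the 2 origins, in log2 units, is called the gap.

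By the labels, CT26 is a colorectal adenocarcinoma and WEHI3 a leukaemia, and of the C57BL/6 set B16 is a melanoma, EG7 a lymphoma, LLC a lung carcinoma, MC38 a colorectal carcinoma and Pan02 a pancreatic adenocarcinoma. The strain of origin is not in the labels and was taken from what is generally known of these lines. CT26 and MC38 were grown in RPMI-1640 and the other lines in DMEM, which for WEHI3 also held 2-mercaptoethanol, so the medium did not follow the strain. Each line stands for 1 tumour, and strain, tissue and individual tumour cannot be told apart with 2 lines on one side. Whether the 3 libraries of each line were separate cultures is not stated, so tests within lines measure only the spread between these libraries. Markers of the labelled tissue were checked. All 7 melanocyte markers reached 1 TPM in B16, 7 of 8 T lymphoid markers in EG7 and 9 of 10 myelomonocytic markers in WEHI3, but 0 of 8 epithelial markers reached it in either colorectal line, CT26 or MC38. Epithelial markers at 1 TPM numbered 2 of 8 in LLC and 5 of 8 in Pan02. The T lymphoid markers summed to 2207 TPM in WEHI3, with 3 of 8 at 1 TPM, and to 1953 TPM in EG7.

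BALB/c and C57BL/6 are inbred mouse strains that carry different haplotypes of the major histocompatibility complex and differ at many genes of the immune response. The mouse genome also holds a large number of processed pseudogenes, intronless copies of messenger RNAs written back into the DNA, and ribosomal protein genes and Gapdh have especially many. Reads of such a copy and of its parent gene can be told apart only at the bases where their sequences differ.

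The genes that set the BALB/c-derived lines apart most widely were such copies. Of 15 genes with the largest gap upwards, 14 were intronless near-identical copies of another gene, most of them of ribosomal protein genes, and the parents Rpl29, Rps2, Rps18 and Rpl26 stood among the 15 largest gaps downwards. The letters involved are few. Gm8210 and Gm13841, both far higher in CT26 and WEHI3, and Gm6344, listed at 0 there, each differ from the 480 coding bases of Rpl29, a protein of the large ribosomal subunit, at 3 positions. Stretches that hold such positions are printed because they show how little separates genes with opposite values. They are from GENCODE M21 transcripts on GRCm38, 5′ to 3′, and capitals mark the positions where the sequences of a set differ. GRCm38 is not a BALB/c genome, and no BALB/c sequence was used here. Whether CT26 and WEHI3 carry the printed bases at each gene was not tested. Their values therefore show under which gene reads were listed, and which gene was transcribed was not tested. In a stretch early in the coding part of Rpl29, the copies that were higher are alike, and Gm6344 is like the parent.
Rpl29, chr9:106430312-106430371, plus strand: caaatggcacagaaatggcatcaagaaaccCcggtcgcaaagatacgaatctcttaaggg
Gm8210, chr1:43189197-43189256, plus strand: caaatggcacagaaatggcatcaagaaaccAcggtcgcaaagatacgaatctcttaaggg
Gm13841, chr5:115802059-115802118, minus strand: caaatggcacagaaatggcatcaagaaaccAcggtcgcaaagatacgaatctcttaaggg
Gm6344, chr13:55085818-55085877, plus strand: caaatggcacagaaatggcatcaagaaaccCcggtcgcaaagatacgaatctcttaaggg

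In a stretch near its end, Gm8210 and Gm13841 are again alike, and Gm6344 differs from them and from the parent.
Rpl29, chr9:106431367-106431426, plus strand: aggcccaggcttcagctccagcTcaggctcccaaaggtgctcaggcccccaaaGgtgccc
Gm8210, chr1:43189556-43189615, plus strand: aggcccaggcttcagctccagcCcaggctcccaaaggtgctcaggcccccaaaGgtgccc
Gm13841, chr5:115801700-115801759, minus strand: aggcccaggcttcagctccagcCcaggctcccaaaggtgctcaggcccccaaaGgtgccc
Gm6344, chr13:55086177-55086236, plus strand: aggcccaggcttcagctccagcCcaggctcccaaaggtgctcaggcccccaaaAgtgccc

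Gapdh, the glycolytic enzyme often used as a reference gene, gave the same picture with fewer letters. Over 999 aligned coding bases, Gm13394 differs from Gapdh at 1 position, Gm12070 at 1 other, and Gm10359 and Gm12671 at 0. Gm13394 was higher in the BALB/c-derived lines and the other 3 copies were lower. The stretch shown holds both positions.
Gapdh, chr6:125162980-125163039, minus strand: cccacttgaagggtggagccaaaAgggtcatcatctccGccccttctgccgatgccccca
Gm13394, chr2:28934228-28934287, minus strand: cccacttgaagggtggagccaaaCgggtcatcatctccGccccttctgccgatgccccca
Gm10359, chr5:105863321-105863380, minus strand: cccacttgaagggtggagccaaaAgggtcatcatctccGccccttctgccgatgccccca
Gm12671, chr4:91852288-91852347, minus strand: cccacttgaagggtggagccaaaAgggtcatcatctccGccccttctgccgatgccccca
Gm12070, chr11:26786955-26787014, plus strand: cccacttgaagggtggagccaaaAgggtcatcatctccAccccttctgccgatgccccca

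Rps18, of the small ribosomal subunit, differs from Rps18-ps6 at 4 and from Rps18-ps5 at 3 of 456 coding bases, and both copies were higher.
Rps18, chr17:33952487-33952546, minus strand: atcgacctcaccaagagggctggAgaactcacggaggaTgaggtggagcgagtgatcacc
Rps18-ps6, chr13:97760382-97760441, minus strand: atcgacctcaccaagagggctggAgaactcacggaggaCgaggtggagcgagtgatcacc
Rps18-ps5, chr13:28257783-28257842, plus strand: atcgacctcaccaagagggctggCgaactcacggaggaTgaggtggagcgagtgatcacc

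Rpl35a differs from Gm10243 at 1 of 330 coding bases.
Rpl35a, chr16:33057483-33057542, plus strand: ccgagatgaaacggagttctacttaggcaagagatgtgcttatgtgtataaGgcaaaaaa
Gm10243, chr6:48523622-48523681, plus strand: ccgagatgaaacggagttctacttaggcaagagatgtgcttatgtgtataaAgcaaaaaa

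Gm8210 lies on chromosome 1 from 43189156 to 43189638. It was listed at 1113, 1006 and 928 TPM in CT26 and at 1699, 1314 and 1401 TPM in WEHI3, against a lowest, median and highest value of 0, 0 and 0.52 TPM in the 15 C57BL/6-derived libraries. The groups stood far apart, and the gap of 9.78 was the widest of all genes tested. Rpl29, the parent on chromosome 9 from 106429454 to 106431568, was listed at 53.6, 52.6 and 57.6 TPM in CT26 and 58.0, 62.3 and 53.8 TPM in WEHI3, against 1532, 2004 and 3537 TPM as lowest, median and highest of the other libraries. All 6 values lay below every C57BL/6-derived library, and the gap between line means was -4.74. On the log2 scale the origins differed by 10.21 ± 0.37 (SE over 7 lines) for Gm8210 and by -5.27 ± 0.31 for Rpl29, with adjusted p = 3.83e-05 and 0.000273 in limma on the 7 line means. Gm6344 was listed at 0 in all 6 BALB/c-derived libraries, against 6.91, 12.2 and 28.1 TPM as lowest, median and highest of the others.

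**Figure D1:**
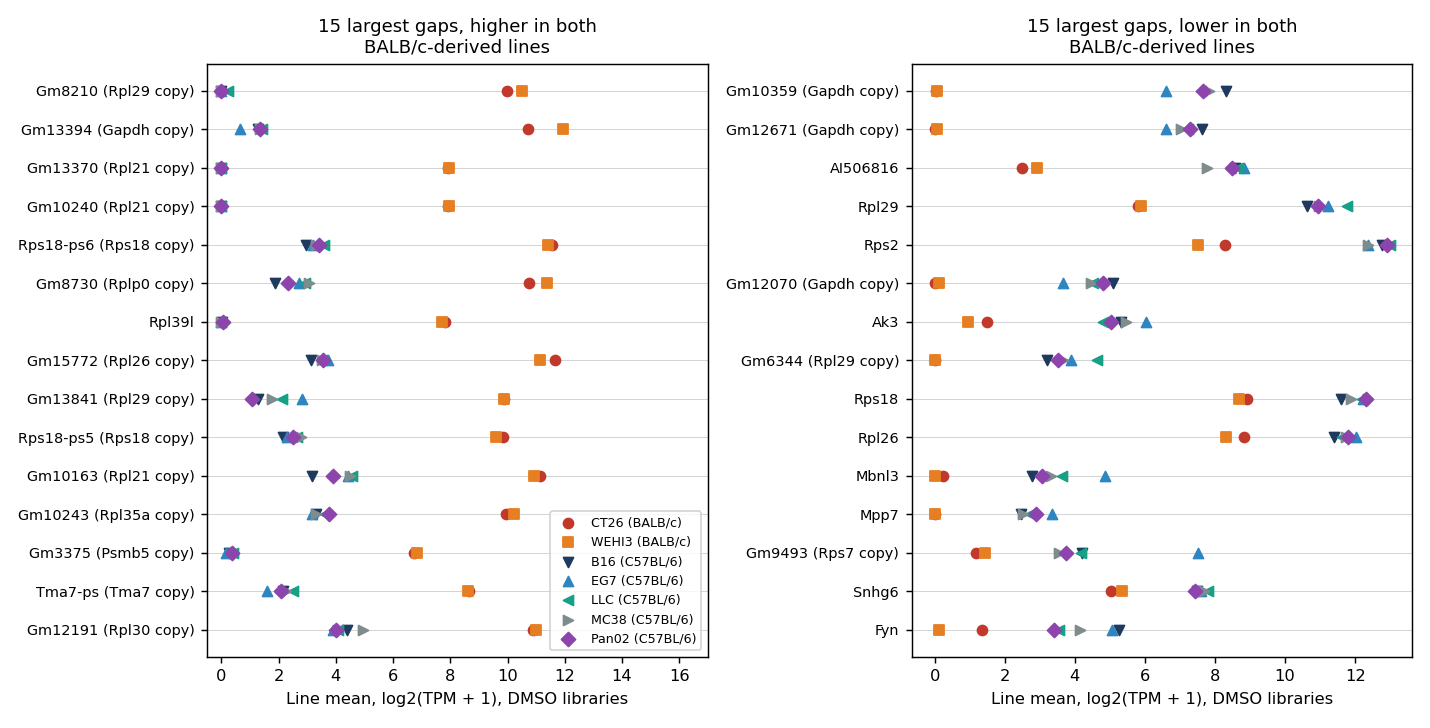
Line means of log2(TPM + 1) in DMSO libraries for the 15 genes with the largest gap above (left) and below (right) all C57BL/6-derived lines, each point 1 line (mean of 3 libraries), with the parent of each intronless copy in brackets. CT26 and WEHI3 stand together and away from the 5 other lines in every row, and the gaps run down to 6.00 on the left and -2.03 on the right.

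Summed with its copies, Rpl29 no longer stood apart. Rpl29 and its 4 copies together reached 2016 ± 14.6 TPM in CT26 and 2464 ± 65.1 TPM in WEHI3 (SD, n = 3), against line means of 1584, 2434, 3489, 2013 and 1973 TPM in B16, EG7, LLC, MC38 and Pan02. CT26 and WEHI3 thus lay within the range of the other lines, and the difference between origins was 0.01 on the log2 scale where that of Rpl29 alone was -5.27. The copies held 97.3% of this sum in CT26 and 97.6% in WEHI3, against 0.586% to 0.823% in the C57BL/6-derived lines. Rps18 with 3 copies summed to 4432 ± 135 TPM in CT26 and 3922 ± 42 TPM in WEHI3, against line means of 3136 to 5088 TPM, and Rpl26 with 2 copies to 3671 ± 69.0 and 2568 ± 4.07 TPM, against 2677 to 4191 TPM, so that WEHI3 lay below all other lines and CT26 among them. Rpl26 itself had 455 and 320 TPM, against at least 2669 TPM. For Rps2, of the small subunit, the line means were 312 TPM in CT26 and 181 TPM in WEHI3, against 5238 to 8105 TPM, while 9 copies, led by Rps2-ps10, summed to 7138 and 4002 TPM, against 47.2 to 87.6 TPM. The whole came to 7450 TPM in CT26 and 4183 TPM in WEHI3, against 5285 to 8192 TPM, again with WEHI3 below all other lines. Snhg9 and Snora78 overlap Rps2 on the other strand and Snora64 on its own.

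Gapdh itself was not separated, at 1180 TPM in CT26 and 2756 TPM in WEHI3, against 7345, 2642, 4329, 4751 and 5042 TPM in B16, EG7, LLC, MC38 and Pan02. With its 15 copies it summed to 3026 ± 46.9 and 7096 ± 166 TPM (SD, n = 3), against 2878 to 7987 TPM. Gm13394, the copy higher in the BALB/c-derived lines, was listed at 1661, 1716 and 1605 TPM in CT26 and 3918, 3993 and 3834 TPM in WEHI3, against at most 1.88 TPM in another library. Gm10359 and Gm12671 did the opposite: they reached at most 0.12 and 0.13 TPM in a BALB/c-derived library, against at least 95.2 and 24.9 TPM in the others.

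**Figure D2:**
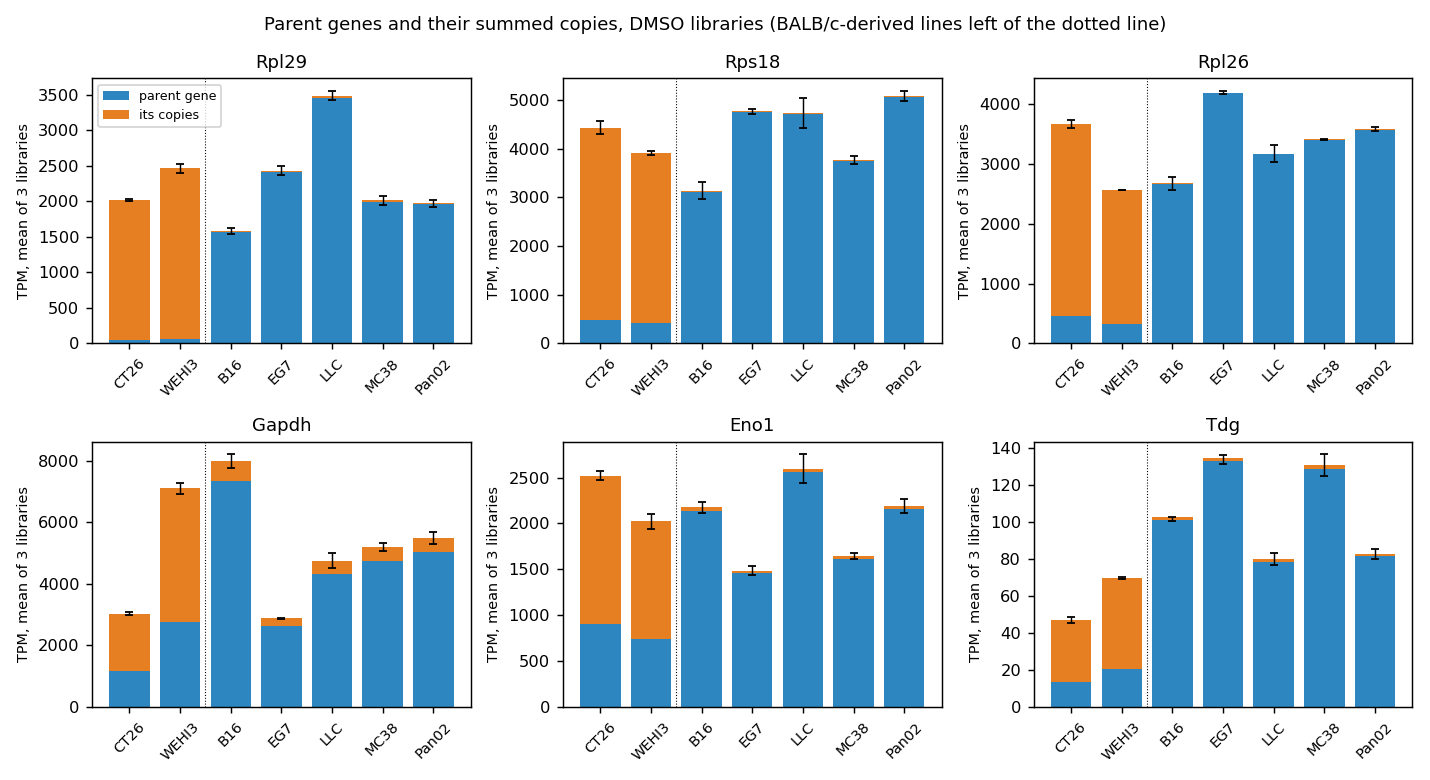
TPM of 6 parent genes (blue) and of their summed intronless copies (orange) in each line, as means of 3 DMSO libraries, with the SD of the sum. In CT26 and WEHI3 most of each sum is listed under the copies. The whole bars of the origins overlap for 5 of the 6 families, Tdg being lower in both lines. For Rpl26 the bar of WEHI3 lies below all other lines and that of CT26 among them.

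The pattern reached beyond the ribosome. Of 446 parent genes that had at least 1 intronless or 2-exon copy and were tested together with it, 50 had a share of copies that was at least 10 percentage points higher in both BALB/c-derived lines than in any other line, and 0 had a share lower by as much. Names that begin with Rpl or Rps, as those of ribosomal protein genes do, were borne by 69 of all 446 and by 10 of the 50. The others included Eno1, the glycolytic enolase, with 64.3% and 63.4% of the sum under copies in CT26 and WEHI3, against 1.26% to 1.62%. They also included Ahcy, which hydrolyses S-adenosylhomocysteine (83.8% and 82.2%, against 2.95% to 4.03%), Itpa, which clears inosine triphosphate (72.1% and 72.7%, against 0.73% to 1.33%), and Tdg, a DNA glycosylase of base excision repair (71.4% and 70.6%, against 1.18% to 1.97%). The 2 BALB/c-derived lines had nearly equal shares: they differed by at most 2 percentage points in 40 of the 50 families, with a median of 0.9. The 50 were chosen because both lines stood above all others, so this likeness is no separate support. It was not computed over all 446 families or for other pairs of lines. The summed TPM of parent and copies was not separated between origins in 43 of the 50, higher in 5 and lower in 2. The shares were computed after the separation of the copies had been seen.

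**Figure D3:**
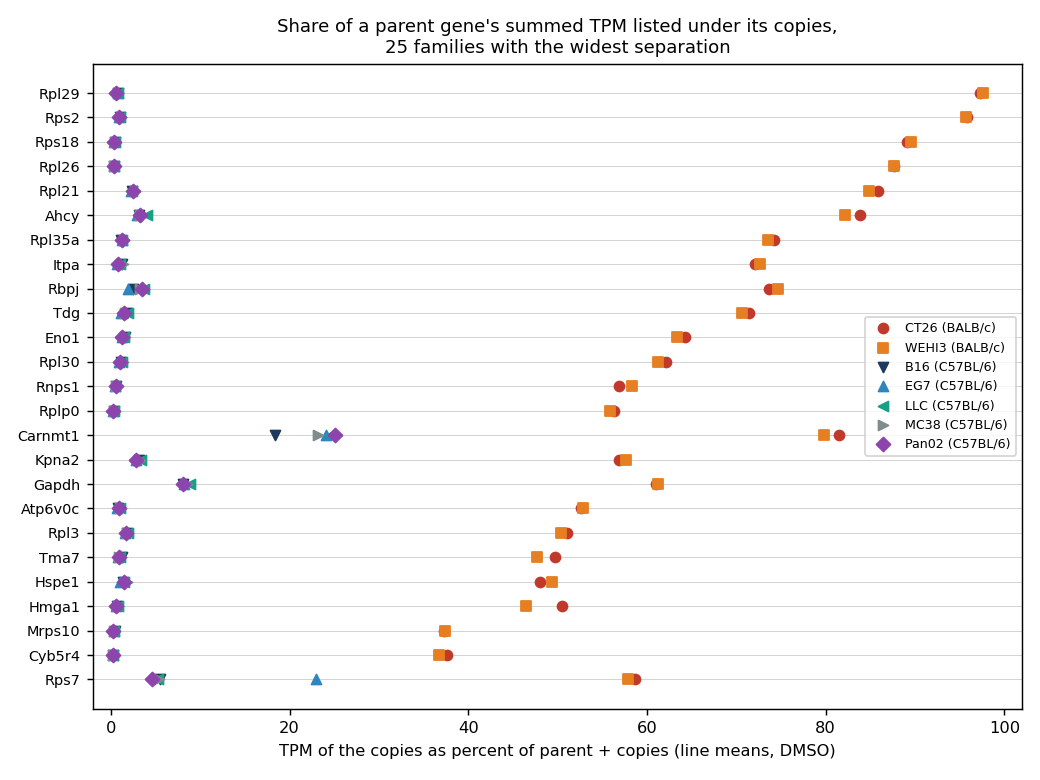
Share of a parent gene's summed TPM that is listed under its copies, in percent, for the 25 families with the widest separation; each point is the mean of 3 DMSO libraries of 1 line. CT26 and WEHI3 overlie each other in most rows, near 97% for Rpl29 and 37% for Cyb5r4, while the C57BL/6-derived lines stay near 0 in most rows, with Carnmt1, Gapdh and EG7 for Rps7 higher.

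Of the 56 parent genes that were separated downwards, 26 had a copy separated upwards. How many of all 446 parents had a copy separated upwards was not counted, so the 26 have no share beside them. In sum with their copies 18 of these 26 overlapped the other lines, 5 remained lower (Tdg, Ndufa12, Npm1, Fgfr1op2 and Rrm2) and 3 were higher (Rpl21, Hspa8 and Cdh11). Over all genes with copies summed into parents, 678 of 15400 were separated upwards and 878 downwards. Tdg summed to 47.1 ± 1.5 TPM in CT26 and 69.9 ± 0.685 TPM in WEHI3, against 80.2 to 134 TPM. Among cytosolic ribosomal protein genes, 14 of 80 were separated downwards and 3 upwards, beside 5.87% and 5.02% of all genes tested. Of these 80, 76 have a near-identical copy, so their single values are uncertain. A looser choice took all parent genes with copies whose names begin with Rpl or Rps, 69 in number. Of these, 12 parents alone were lower and 2 higher, while 3 sums were lower and 3 higher. Over all genes, the copies took 6.24% ± 0.176 of the TPM of CT26 libraries and 5.98% ± 0.0781 of WEHI3 libraries (SD, n = 3), against line means of 2.33% to 2.67%. Their parents took 28.8% and 27.1%, against 29.2% to 34.9%. The copies' shares did not overlap between origins in any library, while the parents' shares did: CT26 library 3 was at 29.1% and B16 library 2 at 28.9%.

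In all, 809 of 16108 genes were separated upwards in the BALB/c-derived lines (5.02%) and 945 downwards (5.87%), together 1754 (10.9%). Ties aside, every gene has some 2 of the 7 lines highest and some 2 lowest, so any choice of 2 lines takes a share of the genes. Other choices of 2 lines were not counted, and these counts alone are therefore no result about strain. Most gaps were small, with a median of 0.23 upwards and -0.15 downwards. A gap above 1 was found for 144 genes upwards and 45 downwards. The rule ends at genes without a measurable gap: Ap1m1, of a clathrin adaptor, had 80.1 and 81.5 TPM in CT26 and WEHI3, against at most 80.1 TPM in another line, and Ell, an elongation factor, had 19.9 and 25.6 TPM, against at most 19.9 TPM. On the lower side, Zfp692 had 10.6 and 12.2 TPM, against at least 12.2 TPM, and Lmtk3 had 0.03 and 0.18 TPM, against at least 0.173 TPM on the linear scale. Just outside stood Rps25, with 2661 and 3040 TPM, against 2661 TPM in EG7, and Trpv4, with 0.03 and 0.0867 TPM, against at least 0.0867 TPM.

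When each of the 10 pairs of a BALB/c-derived and a C57BL/6-derived line had to differ beyond the spread of the libraries, 375 genes passed upwards (2.33%) and 280 downwards (1.74%), or 37.3% of the separated genes (limma, largest of the 10 p-values, adjusted over all genes). When the 7 lines themselves were the units, 80 genes were called higher (0.497%) and 15 lower (0.0931%), together 0.59% of the genes, and all 95 were among the separated ones. Both tests used the DMSO values that also set the membership rule, and only separated genes could pass the test on the 10 pairs. Neither overlap is therefore separate support. The p-values given for single genes describe members already chosen by these values. Genes near 0 in the C57BL/6-derived lines also passed the 1 TPM filter only through CT26 and WEHI3. Genes with a near-identical copy elsewhere made up 15.2% of the genes tested and 83 of these 95 calls. Of the 2450 with such a copy 3.39% were called, and of the 13658 without one 0.0879%. Fitted alone, the genes without a near-identical copy gave 2 calls upwards and 2 downwards, and 4 and 3 genes were called when each copy was summed into its parent. At an unadjusted p under 0.05, 862 of 16108 genes (5.35%) passed over the 7 lines. The balance of directions moved with the scaling: 46.1% of the separated genes were higher on the deposited scale, 57.1% once libraries were scaled by median ratios and 41.3% with quantile normalization, and of those beyond library spread 57.3%, 69.2% and 50.4%.

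Genes with no near-identical copy had smaller gaps, above 2 for 18 of them and for 79 of the genes with a copy. Those described here were taken by gap after the role of the copies had been seen. Rpl39l, a paralog of the ribosomal protein gene Rpl39 best known from the mouse testis, had the widest gap among them. It lies on chromosome 16 from 10170226 to 10174911 and has 3 exons. It averaged 226 ± 11.9 TPM in CT26 and 206 ± 3.56 TPM in WEHI3 (SD, n = 3), against a lowest, median and highest of 0, 0 and 0.09 TPM in the other libraries. The 2 lines were alike and every other library was at or near 0 (difference 7.75 ± 0.39, adjusted p = 0.00013 over the lines, and 0.00362 among genes without a copy alone). Gm4864 is annotated as a processed pseudogene of 1 exon and had no match within the limits set for near-identical copies. It showed the same kind of step, with 23.5 ± 1.07 and 24.4 ± 1.07 TPM in CT26 and WEHI3, against at most 0.05 TPM in another library.

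Cd93, a C-type lectin-like receptor of myeloid and endothelial cells, had 9.98 ± 0.295 TPM in CT26 and 35.1 ± 0.428 TPM in WEHI3, against at most 0.06 TPM in a C57BL/6-derived library (difference 4.27 ± 0.51, adjusted p = 0.0132 over lines). Selp, the adhesion receptor P-selectin, had 2.75, 4.09 and 2.89 TPM in CT26 and 4.04, 3.62 and 1.87 TPM in WEHI3, against at most 0.48 TPM (adjusted p = 0.0415). Neither gene overlapped between origins. Both calls were lost when genes without a copy were fitted alone, with adjusted p of 0.175 for Cd93 and 0.415 for Selp. Ccn3, a secreted matricellular protein, had 10.2 and 165 TPM, Jaml, an adhesion molecule of leukocytes, 5.85 and 183 TPM, and S1pr1, a receptor for sphingosine-1-phosphate, 4.31 and 55.7 TPM in CT26 and WEHI3. In these 3 genes WEHI3 was over 10 times CT26, and none was called over the lines (adjusted p = 0.0837, 0.229 and 0.267), while all passed the pairwise test beyond library spread. The 10 myelomonocytic markers summed to 7.49 TPM in CT26 and 2273 TPM in WEHI3, against 816 TPM in B16 and at most 9.25 TPM in the other lines, and their part in these values was not tested. Tnfrsf9, the costimulatory receptor 4-1BB, had 13.4 and 56.1 TPM, against at most 3.91 TPM as a line mean. Id1, an inhibitor of basic helix-loop-helix factors, had 287 and 248 TPM, against line means between 0.193 and 85.3 TPM.

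H60b, a ligand of the activating receptor NKG2D of natural killer cells, had 4.86, 4.38 and 4.09 TPM in CT26 and 8.65, 7.88 and 7.36 TPM in WEHI3, against at most 0.17 TPM in the 15 other libraries. All 6 libraries lay above the rest (difference 2.77 ± 0.34). The adjusted p over lines was 0.0154 with all genes in the fit, a call that was lost among genes without a copy alone (0.206). H60b overlaps Raet1e on its own strand, so its reads are uncertain, and Raet1e, another NKG2D ligand, had 0.927 and 3.82 TPM, against 0 to 67.9 TPM. Of 4 NKG2D ligands tested 1 was separated, upwards, as were 5.02% of all genes. Pdcd1lg2, which encodes PD-L2, a ligand of the inhibitory receptor PD-1, had 5.73, 5.83 and 6.18 TPM in CT26 and 4.35, 4.07 and 3.70 TPM in WEHI3, against at most 0.48 TPM, that maximum being in EG7. Its difference was 2.45 ± 0.35 with an adjusted p of 0.0331 over lines, which became 0.333 among genes without a copy alone, and A930007I19Rik overlaps it on the other strand. Of 15 checkpoint genes and ligands, 3 were separated, all upwards, beside the same 5.02%. The others were Ceacam1 (2.75 and 2.06 TPM, against at most 0.16 TPM) and the costimulatory ligand Cd80 (13.1 and 2.35 TPM, against at most 1.64 TPM). Cd274, which encodes PD-L1, was not separated, at 0.733 and 35.7 TPM, against 0.163 to 2.37 TPM. The median difference of the list was 0.86, beside -0.1 for all genes tested.

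**Figure D4:**
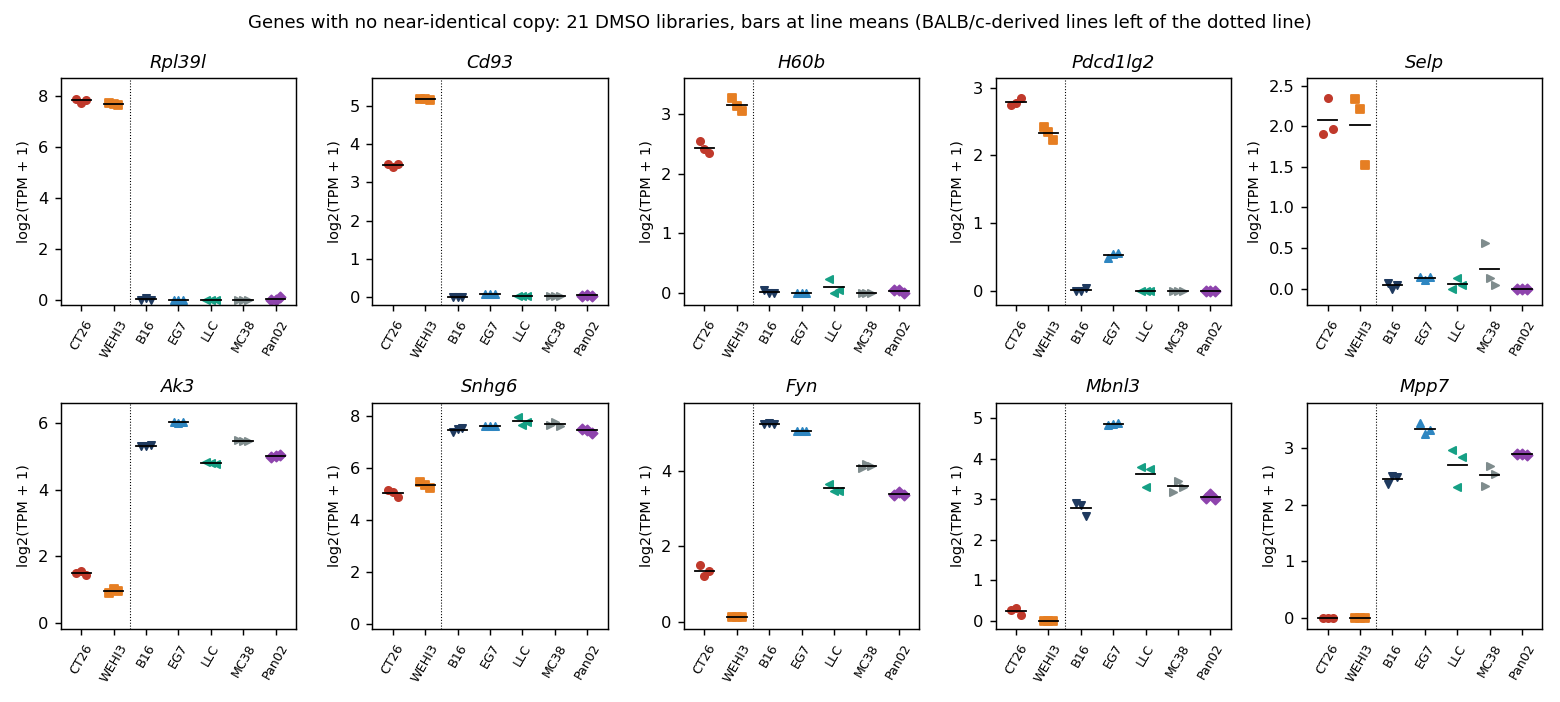
TPM as log2(TPM + 1) in each of the 21 DMSO libraries for 10 genes with no near-identical copy, with a bar at each line mean; CT26 and WEHI3 are left of the dotted line. The upper 5 genes lie near 0 in the C57BL/6-derived lines, with EG7 at 0.45 TPM for Pdcd1lg2, and in the lower 5 the BALB/c-derived lines lie below every other library.

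On the lower side, Ak3, the adenylate kinase of the mitochondrial matrix that phosphorylates AMP with GTP, had the widest gap among genes without a copy. It was listed at 1.84, 1.92 and 1.67 TPM in CT26 and 0.84, 1.0 and 0.94 TPM in WEHI3, against 26.3, 39.3 and 65.1 TPM as lowest, median and highest of the others. Every BALB/c-derived library lay at least 10 times below every other library (difference -4.11 ± 0.40, adjusted p = 0.00417 over lines; 1700018L02Rik and Cdc37l1 overlap it on the other strand). Snhg6, a host gene of small nucleolar RNAs, had 32 ± 3.0 and 40 ± 3.31 TPM, against at least 163 TPM (difference -2.40 ± 0.19, adjusted p = 0.0015). Ak3 and Snhg6 were the only genes without a near-identical copy among the 15 calls downwards over lines, and both stayed called among such genes alone (adjusted p = 0.0431 and 0.0266). Fyn, a Src family kinase, had 1.57 ± 0.260 and 0.0867 ± 0.00577 TPM, against at least 9.29 TPM, and Mbnl3, a muscleblind RNA-binding protein on the X chromosome, had 0.183 and 0 TPM, against at least 5.02 TPM. Mpp7, a scaffold of cell junctions, was listed at 0 in all 6 libraries and again in all 6 RECTAS libraries of the 2 lines, against 3.98 to 9.97 TPM. These 3 genes did not pass over the lines (adjusted p = 0.135, 0.11 and 0.0581). Many of the genes named overlap another gene and are uncertain to that extent, among them Snhg6, Selp, Jaml, Tnfrsf9, Fyn, Mpp7, Ceacam1, Cdkn1a, Xrcc6, Msh6, H2-T22, H2-DMa, Tap2, Ifi35, Trim12a and a, each with a gene on the other strand. AI506816, a noncoding transcript with a near-identical copy, had 4.65 and 6.64 TPM, against line means of 219 to 456 TPM.

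Few genes were listed at 0 on one side. In detail, 8 genes were at 0 in all 6 BALB/c-derived libraries while every other line had a mean of at least 1 TPM, and 13 were at 0 in all 15 C57BL/6-derived libraries while CT26 and WEHI3 both had at least 1 TPM. The 8 included Mpp7, Snhg9, which overlaps Rps2 on the opposite strand, and the small nucleolar RNA genes Snora34 and Snora43. Those last genes were also at 0 in most C57BL/6-derived libraries, did not pass the pairwise test, and with RECTAS had 5.24 TPM in CT26 for Snora34 and 12.1 TPM in WEHI3 for Snora43. Of the 13, 9 had a near-identical copy, among them Gm13370 and Gm10240, which carry the same values in every library (means of 239 and 245 TPM in CT26 and WEHI3) and are both copies of Rpl21. Ifi202b was the only gene annotated as protein coding among the 13.

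Ifi202b is an interferon-inducible DNA-binding protein of the Ifi200 family whose level is known to differ between inbred strains. It had 68.6, 62.0 and 52.8 TPM in CT26 and 2.15, 1.93 and 2.03 TPM in WEHI3, and was listed at 0 in all 15 other libraries. CT26 was far above WEHI3, both lay above the other lines, and the gene was not called over lines (difference 3.78 ± 1.01, adjusted p = 0.462). Of 8 tested genes of the family, Ifi202b alone was separated. Ifi203 and Mndal had differences of 3.03 and 2.17 without separation, with EG7 at 12.2 TPM for Ifi203 and 19.2 TPM for Mndal.

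Of 17 MHC class I genes 1 was separated, where 10.9% of all genes were: H2-T22, a nonclassical class I gene, had 19.6 ± 0.783 TPM in CT26 and 15.7 ± 0.603 TPM in WEHI3, against line means of 26.9 to 37.5 TPM (difference -0.85 ± 0.25, adjusted p = 0.592 over lines). H2-Q7 had 0.86 and 0.107 TPM, against a highest line mean above 100 TPM in MC38, and H2-T23 7.72 and 72.6 TPM, against 0.02 to 45.1 TPM. Both ran across the origins. Of 10 MHC class II genes, H2-DMa, which edits the peptides of class II molecules, was separated upwards with 5.91 and 18.8 TPM, against at most 3.70 TPM as a line mean. Cd74, the invariant chain, H2-Ea and H2-Ab1 had 345, 58.4 and 25.3 TPM in WEHI3 but were at 0 in CT26. Of 14 genes of peptide processing and loading 0 were separated. Tap2, of the peptide transporter, had 9.57 and 196 TPM, against 0.13 to 120 TPM.

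The counts of the other lists stand beside a background of 5.02% of all genes upwards and 5.87% downwards. Of 9 inflammasome genes, Gsdmd, the pore-forming gasdermin, was higher, with 46.9 and 37.7 TPM, against at most 25.9 TPM, as was Nlrp3, a sensor, with 0.177 and 31.4 TPM, against at most 0.0367 TPM. Of 16 genes of retrovirus restriction and entry, Trim12c, which has a near-identical copy, was higher (2.61 and 5.50 TPM, against at most 1.62 TPM). Fv1, which restricts murine leukaemia virus and is known for its strain alleles, was lower (2.92 and 3.31 TPM, against at least 3.85 TPM), and so were Mov10 (6.95 and 9.85 TPM, against at least 10.5 TPM) and Trim12a (0 and 0 TPM, against 0.00333 to 2.46 TPM). Of these 4, only Trim12c passed the pairwise test beyond library spread. Of 22 interferon-stimulated genes, Ifih1, Ifi35 and Ifi27 were higher. Ifih1, a sensor of double-stranded RNA, had 1.99 and 1.88 TPM, against at most 1.21 TPM, and passed the pairwise test. Ifi35 and Ifi27, with gaps of 0.14 and 0.02, did not, and Ifi35 was not separated with RECTAS. Of 7 Ly6 genes Ly6e was higher by a gap of 0.01, at 1230 and 4231 TPM, against at most 1219 TPM in Pan02. Of 12 genes chosen as variable between strains, Ifi202b and a, the agouti gene, were higher, a with 0.97 and 17.1 TPM, against at most 0.567 TPM and without passing the pairwise test.

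Of 26 genes of the p53 and cell-cycle inhibitor list, 2 were separated, both upwards. Cdkn1a, the inhibitor p21, had 149 ± 3.98 and 195 ± 4.94 TPM, against at most 78.5 TPM, and Pmaip1, the death protein Noxa, had 1.23 and 22 TPM, against at most 0.95 TPM. Cdkn1a passed the pairwise test and Pmaip1 did not (adjusted p = 0.0798). Of 30 DNA repair genes tested, 27 were not separated, where 10.9% of all genes were separated and 5.87% were separated downwards. Among the separated ones Xrcc6, which encodes the end-joining protein Ku70, was lower. Xrcc6 had 51.6 ± 2.48 and 36.7 ± 1.43 TPM, against at least 61.2 TPM. The mismatch repair gene Msh6 was also lower, with 38.2 and 38.9 TPM, against at least 39.9 TPM, but did not pass the pairwise test. Of 22 glutathione S-transferases Gstm1 was higher (63.6 and 623 TPM, against at most 49.1 TPM), and it has a near-identical copy. Of 18 chemokines Ccl5 was higher (5.96 and 2.87 TPM, against at most 2.13 TPM) and did not pass the pairwise test. Of 9 interferon-inducible GTPases Irgm2 was higher, by a gap of 0.06. Of 13 mitochondrially encoded genes and of 8 genes of the sex chromosomes, 0 were separated. Among 352 zinc finger genes named Zfp, 10 were higher and 20 lower, led by Zfp868 (13.1 and 20.7 TPM, against at most 8.78 TPM) and Zfp708 (0.307 and 0.137 TPM, against at least 1.14 TPM). Of the marker lists, 1 gene was separated: Mpo, the granule enzyme myeloperoxidase, had 3.62 and 0.747 TPM, against at most 0.17 TPM.

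Several genes were read in every line because of what is known of BALB/c mice or of WEHI3. Il3, known to be switched on in WEHI3, had 28.7 ± 0.705 TPM there and was listed at 0 in CT26 and in the 5 other lines. Hoxb8, also known as activated in WEHI3, had 212 ± 5.25 TPM there and 1.48 ± 0.131 TPM in CT26, against at most 0.08 TPM, so that it counted as separated although CT26 was low. Prkdc, whose BALB/c allele is known to be less active, had 1.43 ± 0.055 TPM in CT26 and 4.32 ± 0.323 TPM in WEHI3, against 1.64 to 5.00 TPM. Cdkn2a, which also has a known BALB/c allele, was at 0 and 18.1 TPM, against 0 to 66.7 TPM. Apobec3, a cytidine deaminase with strain alleles, had 35.8 and 19.3 TPM, against 0.19 to 142 TPM. Nnt, the transhydrogenase that is deleted in part in C57BL/6J, is listed under 2 overlapping identifiers, with 7.50 and 10.4 TPM, against 5.28 to 13.5 TPM for one and 13.2 and 25.3 TPM, against 13.9 to 35.7 TPM for the other. Xist stayed at or below 0.0733 TPM in every line and was not tested. None of Il3, Prkdc, Cdkn2a, Apobec3 and Nnt was separated.

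Of all genes with no near-identical copy 4.22% were separated upwards and 5.61% downwards, 9.83% in all, and the counts by chromosome are given as a description without a test. On chromosome 8, 95 of 760 such genes were separated upwards and 13 downwards, 14.2% in all. Directions were the other way on chromosome 10 (12 upwards and 75 downwards of 687), chromosome 16 (8 and 47 of 409), chromosome 15 (12 and 60 of 582), chromosome 12 (9 and 49 of 468), chromosome 2 (22 and 88 of 1073), chromosome 18 (5 and 27 of 338) and chromosome 11 (31 and 83 of 1112). Chromosomes 7 (78 and 27 of 1054), 9 (62 and 18 of 816), 13 (32 and 11 of 482), 5 (47 and 28 of 877) and 14 (17 and 12 of 443) leaned upwards. Chromosome 6 (11 and 33 of 704) leaned downwards, and chromosomes 1, 3, 4, 17, 19 and X also had more genes downwards than upwards. The median difference between origins over the genes of chromosome 8 was 0.34, and that of chromosome 10 was -0.34. Taken per line against the mean of all 7, the median gene of chromosome 8 stood at 0.07 in CT26 and 0.30 in WEHI3, against -0.04, -0.41, 0.08, -0.01 and -0.30 in B16, EG7, LLC, MC38 and Pan02, so that LLC lay as high as CT26. On chromosome 10 it stood at -0.41 in CT26 and -0.13 in WEHI3, against -0.17 to 0.20.

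**Figure D5:**
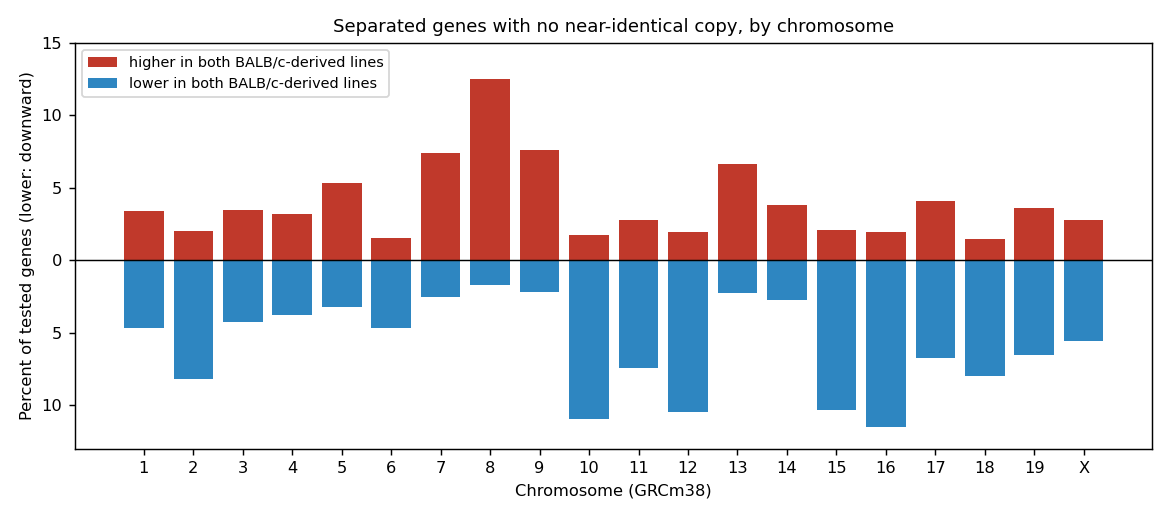
Percent of tested genes with no near-identical copy that were separated upwards (red) or downwards (blue, drawn downward) in the BALB/c-derived lines, by chromosome. Chromosome 8 has the tallest upward bar, 95 of 760 genes, and chromosomes 10, 12, 15 and 16 have the longest downward bars.

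The RECTAS libraries of the same lines gave nearly the same order. Of the 1754 genes separated with DMSO, 1383 (78.8%) were separated in the same direction with RECTAS, where 1714 genes (10.6%) were separated in all. The share depended on the gap: 55.8% of 579 genes with a gap up to 0.1 recurred, 86.4% of 789 between 0.1 and 0.5, 97.5% of 197 between 0.5 and 1, and 98.4% of 189 above 1. All 95 genes called over lines were separated again. Of the 655 genes beyond library spread, 565 passed the same test again with RECTAS, where 664 genes (4.12%) passed. These are libraries of the same 7 lines, so the choice of lines was not repeated. RECTAS itself moved 348 of the 1754 separated genes on average over the lines, 118 upwards and 230 downwards, or 19.8% beside 19.6% of all genes, with a median size of 0.1 and at most 0.76 on the log2 scale. Only 14 of the 189 genes with a gap above 1 were among them. Rpl29, Gm8210, Ak3 and Rpl39l had RECTAS effects between -0.06 and 0.01, none called. The response to RECTAS differed between origins for 3 genes (0.0186%).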

How the data were processed

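Polyadenylated RNA of 7 mouse tumour lines was sequenced in 42 libraries, 21 of them with DMSO. Per the labels' protocols the libraries were made with a stranded TruSeq mRNA kit. HISAT2 2.2.0, RSEM 1.3.0 and GRCm38 appear, without roles, in the notes on processing (per the submitters' processing notes). Not given in the sources used here were the strand setting, the annotation release and how reads that match several places were handled. The authors deposited TPM per gene, 55401 genes a library, summing to at least 999999. TPM holds no read counts, so depth is unknown and no counting interval is given. Per library 11064 to 12205 genes were at 1 TPM or more, and libraries of log2(TPM + 1) correlated across genes at 0.991 to 0.995 within lines and 0.728 to 0.921 between them.

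Values were taken as log2(TPM + 1), a scale that understates changes of low genes, and averaged over 3 libraries a line. A gene was kept where the mean of any line reached 1 TPM (16108 genes). The tests used limma 3.58.1 in R 4.3.3, two-sided, with Benjamini-Hochberg adjustment over all genes kept and a threshold of 0.05. One fit on the 21 libraries gave all 10 pairs of lines across origins, with the largest p as the gene's p. Another took the 7 line means as samples, 2 against 5. The RECTAS libraries were handled alike, and the mean RECTAS effect and its difference between origins were tested on all 42. The fits were tested on simulated data. Gene positions are from GENCODE M21 on GRCm38, which holds 99.5% of the identifiers. Near-identical copies were found with BLAST+ 2.17.0 between transcripts of genes that do not overlap (identity of at least 95% over at least 80% of the shorter transcript and 100 bases), giving 2450 genes, of which 725 of 1 or 2 exons had a parent of at least 3 exons. Genes with such a copy or an overlapping gene are uncertain, since reads can be assigned to either. GRCm38 is not a BALB/c genome. Values of genes whose sequence differs between the strains, with or without a copy, were not checked against a BALB/c sequence.

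The genes named were the 15 largest gaps each way, the 4 largest called differences over lines each way, the 2 smallest gaps each way, the separated members of the gene lists with up to 3 others per list (6 each way for Zfp genes), and Il3, Hoxb8, Nnt, Prkdc, Cdkn2a, Apobec3 and Xist. Genes without a copy, the families and the chromosomes were chosen after values were seen. One item of the lists is not reported here. The rule for members and the lists were set with earlier results of these data known.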

Additional observations from a re-analysis of the deposited data

Results flagged for a closer look

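Single libraries were marked by Dixon's ratio over the 6 BALB/c-derived libraries. These come from 2 lines and are not 1 sample, so how often chance marks a group is not known. Ap1m1 was at 77.2 TPM in CT26 library 1, below the other 5. Lmtk3 was at 0.37 TPM in WEHI3 library 2, above the other 5. Gm12671 and Gm12070 were at 0.13 and 0.25 TPM in WEHI3 library 3 and at 0 in the other 5, where any value above 0 is marked.

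The RECTAS response differed between origins for 3 genes in limma over the lines, all with a near-identical copy and at low TPM. The response of Gm9803 differed by 0.65 on the log2 scale (adjusted p = 0.048), with means of 0.62 in the BALB/c-derived and -0.03 in the C57BL/6-derived lines. That of Gm5735 differed by -0.75 (adjusted p = 0.0205), with means of -0.76 and 0. That of Gm23123 differed by -1.03 (adjusted p = 0.00852), with means of -1.02 and 0. Both Gm5735 and Gm23123 were listed at 0 in the C57BL/6-derived lines with RECTAS and with DMSO. Genes were kept by their DMSO means, and both reached 1 TPM only through CT26 and WEHI3. That choice favours a fall with RECTAS in CT26 and WEHI3, while values at 0 in the other lines cannot fall. Their p-values are therefore no support for a difference in response.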

How the results depend on the processing

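With no filter on low values, 1344 genes were separated upwards and 140 were called higher over the lines; with a mean of at least 5 TPM, 53 were called higher. Requiring all 6 libraries beyond all 15 left 482 upwards and 446 downwards, and protein-coding genes with no overlapping gene gave 266 and 361. Using the 21 libraries with the line as a random block gave 175 calls higher and 58 lower, and with the replicate block added 156 and 48. The replicate numbers did not pair the samples, since the same number correlated above 0.1 in 2 of 21 pairs of DMSO and RECTAS libraries; with the replicate block 368 genes were beyond library spread upwards and 270 downwards. Genes with no near-identical copy and summed copies were added after seeing the data: the first gave 233 genes upwards beyond library spread and 2 higher (Rpl39l and Gm4864) and 2 lower (Ak3 and Snhg6) over lines, the second 4 and 3. With median-ratio scaling, 0 genes had a higher RECTAS response. The median difference of all genes was -0.097 as deposited, -0.021 with median-ratio scaling and -0.127 with quantile normalization.

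Leaving out 1 library, separated genes ran from 788 to 828 upwards and 926 to 972 downwards, those beyond library spread from 363 to 383 and 254 to 305, and calls over lines from 77 to 82 and 14 to 16. Leaving out 1 line, they ran from 946 to 3183 and 1155 to 3160, from 456 to 2370 and 373 to 1591, and from 51 to 793 and 13 to 90, and responses to RECTAS from 0 to 13 and 0 to 26; fewer lines to lie beyond raise the first 4 counts by construction. Without CT26, 3183 and 3160 genes were separated, 2370 and 1591 beyond library spread, and 793 and 90 called over lines, with 13 and 26 RECTAS responses. Without WEHI3 these were 2199 and 2575, 1383 and 1144, 190 higher over lines, and 10 and 14. Separated downwards were 1443 without EG7 and 1431 without Pan02; beyond library spread downwards 525 without EG7, 437 without LLC and 482 without Pan02; 51 were called higher without MC38. Without any 1 of the 5 C57BL/6-derived lines, 0 RECTAS responses were called. The cause was not tested.

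Differences that changed sign were small or rested on 1 line. Apobec3 stood at -0.18 with a pseudocount of 5, -0.29 without CT26 and -0.96 without B16, its range without 1 line ending at 0.76. Without CT26 Prkdc stood at 0.36 and Nnt at 0.12 and 0.13, and without LLC Nnt stood at 0.01, while both genes reached -0.77 without WEHI3. Without WEHI3 Cdkn2a stood at -1.46 and Cd274 at -0.29, and without CT26 at 2.8 and 4.12. Depth is unknown, so values near 0 TPM cannot be read as absence.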
